A study of Mus musculus with 6 samples.

Results

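RNA–RNA contacts were compared between mouse embryonic stem (ES) cells and mouse embryonic fibroblasts (MEFs), in libraries made with the same ribosomal RNA depletion kit. In the MARIO assay, RNAs held by the same protein are ligated through a biotinylated RNA linker, so that each sequenced molecule has the form RNA1–Linker–RNA2. Each deposited line gives one such molecule, as the position, sequence, RNA type and name of the RNA1 fragment and of the RNA2 fragment. Lines were kept where both fragments had at least 25 nt, which left 642259 of the 10479650 lines of the 6 libraries of the series. ES-2 contributed 524908 of its 1312314 lines (40%), and MEF 117351 of its 474526 lines (24.7%). The MEF library had been sequenced on a pair of flow cells, here called A (82984 lines) and B (34367 lines), and each MEF value below names its flow cell or says that both were pooled.

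ES-2 came from the feeder-free E14 line of strain 129/Ola, crosslinked by UV light of 254 nm and cut by RNase I to first fragments of about 1000 nt. MEF came from fibroblasts of strain C57Bl/6, crosslinked at the same 254 nm and cut by RNase I to about 300 nt. Both were depleted of rRNA with the GeneRead kit. A second ES assay, ES-1, from the same line with the same UV light but with rRNA removed by duplex-specific nuclease, was used to show how far a pair of ES assays lay apart. The labels give ES-1 first fragments of about 1000 nt as well, while the study's methods give a range that reaches higher for ES-1. A further ES library, crosslinked indirectly, is used only for a match rate on a flow cell shared with MEF. Per the study's methods it was crosslinked with formaldehyde and a second chemical agent, cut by sonication and depleted of rRNA by duplex-specific nuclease. ES-2 and MEF had 0 flow cells in common, whereas ES-2 shared 2 with ES-1. Cell type, strain, first fragment size and flow cell therefore cannot be told apart in any difference below. Each group had 1 library, so no test between cell types was possible. Ratios carry 95% intervals from the counts (exact conditional binomial) and shares carry exact Clopper-Pearson intervals. These cover counting error only. Per the study's methods, PCR copies were removed by means of a random barcode on each molecule. The barcodes were not used here, and lines with identical positions that the files still hold were counted as they stand unless collapsing is named.

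Most of the RNA recovered by such an assay is structural. Small nucleolar RNAs (snoRNAs) guide chemical modification of other RNAs: those of the C/D box class direct methylation of riboses and those of the H/ACA box class direct the conversion of uridine to pseudouridine, mostly in rRNA, while the small Cajal body RNAs (scaRNAs) do so for spliceosomal RNAs. A few members, among them U3 and U8, act in the cleavage of the rRNA precursor. Small nuclear RNAs (snRNAs) form the core of the spliceosome, and tRNAs carry amino acids to the ribosome.

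The fragments below show what the comparison turned on. They are given 5′ to 3′ in the direction of the RNA with mm9 positions, and each is the commonest matched fragment of at most 60 nt (and, for snoRNAs, at least 30 nt) of that RNA in the library named, or one of several equally common. The first 4, C/D box snoRNAs from ES-2, belong to the C/D families that were lowest on MEF flow cell A relative to ES-2.
Snord35a (chr7:52381719-52381758, minus strand): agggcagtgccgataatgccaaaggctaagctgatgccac
Snord34 (chr7:52381973-52382014, minus strand): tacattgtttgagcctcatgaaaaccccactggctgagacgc
Snord118, or U8 (chr11:68887018-68887065, plus strand): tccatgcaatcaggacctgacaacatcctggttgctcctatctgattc
SNORD75 (chr1:162966007-162966044, plus strand): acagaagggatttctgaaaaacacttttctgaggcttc

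The next 4, H/ACA box snoRNAs from MEF flow cell A, belong to the H/ACA families that were highest there relative to ES-2.
Snora47 (chr13:96100553-96100595, plus strand): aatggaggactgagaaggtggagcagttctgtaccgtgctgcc
Snora65 (chr2:32818904-32818941, plus strand): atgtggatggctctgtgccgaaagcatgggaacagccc
Snora78 (chr17:24856723-24856757, minus strand): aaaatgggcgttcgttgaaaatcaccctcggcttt
Snora34 (chr15:98350205-98350256, minus strand): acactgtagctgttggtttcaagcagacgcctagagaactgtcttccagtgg

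The last pair is the RNA1 and the RNA2 of the most repeated Col1a1 line of MEF flow cell B (24 lines, an exon of the collagen gene), in which the capitals mark the bases that RNA2 shares with RNA1.
Col1a1, flow cell B RNA1 (chr11:94810018-94810066, plus strand): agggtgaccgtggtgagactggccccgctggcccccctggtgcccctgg
Col1a1, flow cell B RNA2 (chr11:94810018-94810076, plus strand): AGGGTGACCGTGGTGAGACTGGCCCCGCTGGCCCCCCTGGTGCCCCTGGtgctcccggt

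The flow cells of MEF differed in what their lines held, as that pair shows. On flow cell B, the RNA1 sequence lay inside the RNA2 sequence in 99.3% of lines, against 0.36% on flow cell A and 0.348% in ES-2. In those lines RNA2 was a median of 10 nt longer than RNA1. Lines that repeated the positions and strands of an earlier line made up 69.4% of flow cell B, 9.05% of flow cell A and 6.62% of ES-2. Among snoRNA ends with a strand in the GENCODE annotation, RNA1 lay on the strand of its gene in 99.6% of ES-2 ends and 99.9% of flow cell A ends, and RNA2 did so in 2.71% and 0.108%. On flow cell B the same shares were 62.6% for RNA1 and 64.3% for RNA2. Only 235 of its lines (0.684%) held a pair of distinct fragments that both matched the genome, so that flow cell B was not used for contacts. In the values on matched ends below it was counted by the RNA2 end alone and, unless stated, set against ends of both sides in the ES libraries. The values over all kept ends with pooled flow cells count both ends of every line, and so count most fragments of flow cell B 2 times.

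On flow cell A the weak point was RNA1. A fragment was called matched when its sequence differed from mm9 at the stated position in at most 15% of bases. RNA2 matched in 92.7% of flow cell A lines and 92.1% of ES-2 lines. RNA1 matched in 47.3% of flow cell A lines against 85.9% in ES-2, and in 98% of the lines of the indirectly crosslinked ES library that ran on the same flow cell. That library also differed in crosslinking, cutting and fragment length, with a median RNA1 of 90 nt against 28 nt for MEF on flow cell A. The shortfall depended on the RNA type. RNA1 ends named snoRNA matched in 98.5% and those named snRNA in 98.6% on flow cell A, but those named protein-coding in 11.3% (46.1% in ES-2), LTR in 7.17% and unannotated in 5.84%. Of the 43734 RNA1 ends of flow cell A that did not match, 25837 (59.1%) held at least 12 bases of one recurrent stretch of 24 bases, which reads as the linker in reverse complement. In ES-2 this was 8.41% of the unmatched RNA1 ends.

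**Figure D1:**
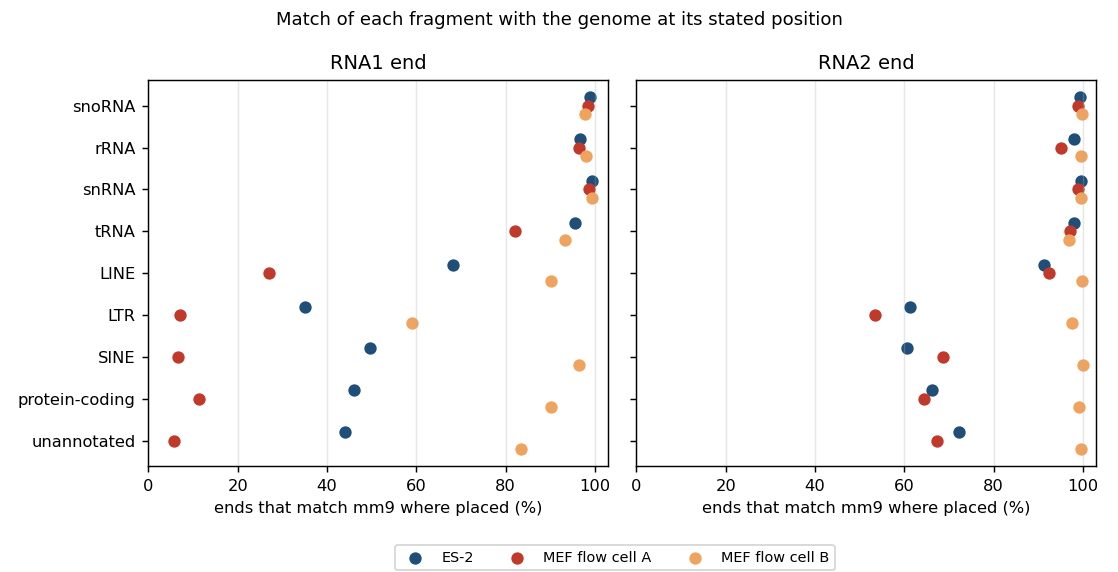
Share of kept ends (%, horizontal axis) whose sequence matched mm9 at the stated position, by RNA type (vertical axis), for RNA1 (left) and RNA2 (right). Blue points are ES-2, red points MEF flow cell A and orange points MEF flow cell B; for RNA1 the red points fall from 98.5% for snoRNA to 11.3% for protein-coding names, where ES-2 stood at 46.1%.

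Over all kept ends, with both MEF flow cells pooled, snoRNA ends were relatively fewer in MEF than in ES-2 (log2 ratio -0.56, interval -0.58 to -0.54), snRNA ends had a log2 ratio of 0.00 (-0.08 to 0.09), and tRNA ends were fewer (log2 ratio -1.70, -1.80 to -1.60). With flow cell B counted by its RNA2 end alone, the snRNA ratio was -0.48 (-0.58 to -0.37), the snoRNA ratio -0.40 and the tRNA ratio -1.57. With the flow cells pooled, the directions also differed by the side of the linker. Among RNA2 ends alone, snoRNA was higher in MEF (0.32, 0.29 to 0.35), snRNA was higher (0.91, 0.78 to 1.04) and tRNA was higher (1.30, 1.15 to 1.44). Of the pooled snRNA ends at RNA2, 544 were on flow cell B and 168 on flow cell A. Per 1000000 matched ends of each side, snRNA on flow cell A lay below ES-2 at RNA1 (3694 against 10062) and RNA2 (2158 against 3487). snoRNA on flow cell A lay above ES-2 at both (263694 against 236518, 121038 against 76994), and tRNA turned with the side. The MEF flow cells lay apart in all 3 values, and for snRNA they lay on opposite sides of ES-2, with flow cell A alone at -1.65 and flow cell B alone at 1.41. On matched ends, flow cell A gave 0.14 for snoRNA (0.11 to 0.16), -1.31 for snRNA (-1.48 to -1.15) and -1.10 for tRNA (-1.21 to -0.99), while flow cell B gave -2.33, 1.25 and -2.97. The flow cell B values set its RNA2 ends against ES-2 ends of both sides. Levels are given below in EPM, the ends of an RNA per 1000000 ends, of all matched ends or of the matched ends that were not ribosomal, as stated. The results that follow rest on matched ends, and compare flow cell A with ES-2 unless flow cell B is named.

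snoRNA ends came to 153975 EPM of matched ends in ES-2, 169235 on MEF flow cell A, 30548 on flow cell B and 272436 in ES-1. The total in MEF flow cell A thus lay between the totals of the ES assays. snRNA ends numbered 6660 EPM in ES-2, 2677 on flow cell A, 15844 on flow cell B and 13147 in ES-1, so that the flow cells of the one MEF library lay on opposite sides of ES-2. tRNA ends numbered 13780 EPM in ES-2, 6430 on flow cell A, 1754 on flow cell B and 4519 in ES-1. Among RNA2 ends alone, the side by which flow cell B was counted, ES-2 held 76994 EPM of snoRNA, 3487 of snRNA and 2355 of tRNA. The ES assays differed by a log2 ratio of -1.61 in tRNA, more than flow cell A did from ES-2. Within ES-2, the pair of flow cells gave 14533 and 12791 EPM for tRNA and 6556 and 6797 for snRNA, a much smaller spread than in MEF.

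rRNA took a like share of matched ends, 69.2% in ES-2 and 68.3% on flow cell A (81.3% on flow cell B, 54.7% in ES-1). Its makeup differed. 28S rRNA made up 73.3% of the rRNA ends in ES-2 and 87.3% on flow cell A, and 18S rRNA 26.7% and 12.6%. Flow cell B gave 83.8% and 16.2%, and ES-1 63.5% and 36.4%. On this measure both MEF flow cells lay on the same side of both ES assays.

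**Figure D2:**
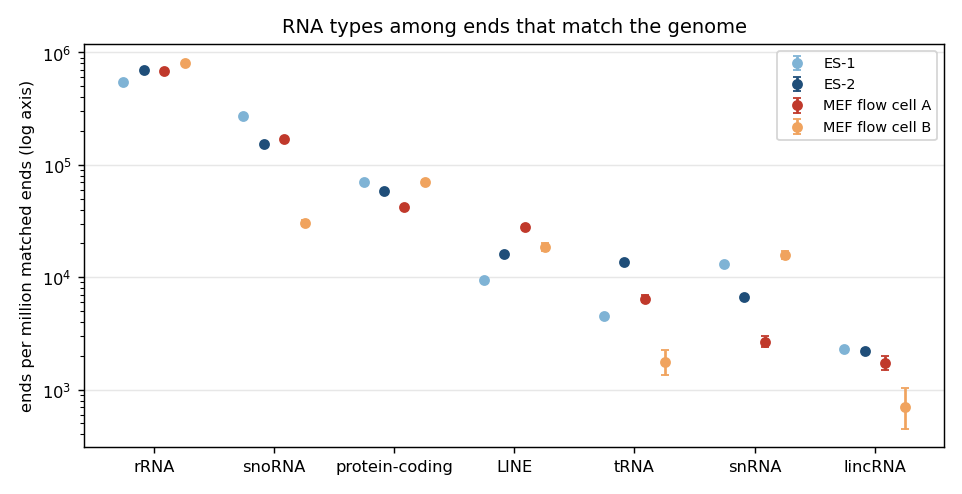
Ends per 1000000 matched ends (EPM, vertical axis, log scale) for 7 RNA types, with points for ES-1, ES-2 and the MEF flow cells and bars for the 95% counting interval. snRNA shows the flow cells of MEF (2677 and 15844 EPM) on either side of ES-2 (6660), and tRNA shows ES-1 (4519) below MEF flow cell A (6430).

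The makeup of the snoRNA ends differed more than their total. C/D box snoRNAs were 21.6% of snoRNA ends in ES-2 (31099 of 143807 ends, 21.4% to 21.8%) and 4.63% on MEF flow cell A (910 of 19661, 4.34% to 4.93%). The other libraries fell on the same sides: 16.6% in ES-1 and 6.12% on flow cell B (64 of 1045, 4.75% to 7.75%). The flow cells of ES-2 gave 22% and 21.2%. H/ACA box snoRNAs took the larger part everywhere, with 72.9% in ES-2, 75.7% in ES-1, 93.8% on flow cell A and 92.2% on flow cell B. Scaled to ends that were not ribosomal, the C/D class was 4.26-fold lower on flow cell A than in ES-2 (3.98 to 4.55) and 10.9-fold lower on flow cell B (8.5 to 14.1). The H/ACA class was 1.41-fold higher on flow cell A (1.39 to 1.43) but 2.43-fold lower on flow cell B (2.28 to 2.6). Over all ends of flow cell A, matched or not, H/ACA was lower as well (232485 against 283068 EPM of non-ribosomal ends, 1.22-fold, 1.2 to 1.24), and C/D 7.25-fold lower. The snoRNA ends of flow cell A numbered 19661 matched and 19935 in all, and those of ES-2 143807 and 145143. The non-ribosomal total they were scaled to rose from 34388 to 80401 on flow cell A and from 276172 to 374394 in ES-2. Both scalings of flow cell A thus rest on nearly the same snoRNA ends. C/D lay below ES-2 on both and on flow cell B, while the direction for H/ACA depended on the total and the flow cell.

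The contrast in the C/D share was present on either side of the linker and in fragments of each length examined. Among RNA1 ends the C/D share was 20.3% in ES-2 and 3.4% on flow cell A, and among RNA2 ends 25.5% and 5.99%. With repeated lines collapsed it was 21.3% and 4.37%. Among fragments of at least 60 nt it was 17.4% and 2.18%. C/D box genes are the shorter class. Within it, the 6 families counted below with genes over 100 nt (104 to 137 nt) had log2 ratios of -4.88 to -1.13, with a median of -3.25. The 45 with shorter genes (60 to 99 nt) had ratios of -5.22 to 1.05, with a median of -1.95. At least 4-fold lower were 5 of the 6 and 22 of the 45. Gene length is the median over the copies of a family, which puts U3 (90 nt over 13 names) among the shorter. SNORD52 and SNORD55 had no gene length and are in neither group. Whether gene length played a part was not tested. The part of the first fragment size, which differed between the libraries, was not tested.

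Many snoRNA genes have near-identical copies whose ends cannot be assigned to one locus with certainty, so copies were summed into families by name number. Of 136 families with an expected 10 or more ends in the smaller library, 37 (27.2%) were at least 4-fold higher in ES-2 and 9 (6.62%) at least 4-fold higher on MEF flow cell A. The C/D class held 53 of the families. Of these 52 had a lower level than in ES-2. Some of them were within counting error of it: SNORD30 (0.989 of ES-2, 0.7 to 1.37), SNORD14 (0.728, 0.48 to 1.07) and SNORD100 (0.738, 0.413 to 1.23). By at least 4-fold, 28 lay below and 0 above, with a median log2 ratio of -2.26. Of the 67 H/ACA families 50 lay above ES-2, 7 by at least 4-fold, and 1 lay below by that much, with a median of 0.82. The H/ACA count depended on the non-ribosomal total that the ends were scaled to and on the flow cell. The values over all ends rest on nearly the same snoRNA ends as the matched ones and are not a separate count. Over all ends of flow cell A, matched or not, 34 of the 67 families lay above ES-2 and 33 below (2 by at least 4-fold each way, median 0.02), and on flow cell B 14 lay above and 53 below. Of the C/D families, 52 of 53 lay below over all ends of flow cell A and 51 on flow cell B, where 35 had no end. Against these, the median log2 ratio over all 284 names tested on matched ends was -0.29.

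The ES assays were nearer to each other. ES-1 and ES-2 differed by at least 4-fold in 1 of the 53 C/D families and in 1 of the 67 H/ACA families, with median log2 ratios of -0.17 and 0.47. Set against ES-1, the MEF flow cell A level was below in 51 of 53 C/D families (median log2 ratio -2.13), and 25 of the 28 families called against ES-2 were at least 4-fold lower than ES-1 too. For H/ACA the second assay changed more: 46 of 67 families lay above ES-1, at a median of 0.35, and 4 of the 7 called families were at least 4-fold above it. On flow cell B all 28 of the called C/D families lay below ES-2, 19 of them with no end, but the 53 families held only 61 ends there.

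Among the C/D families, SNORD35 had 450 ends in ES-2 (1629 EPM of non-ribosomal ends) and 1 on flow cell A (29.1 EPM), a 56-fold difference with a wide interval (10 to 2218). SNORD34 had 603 and 2 ends (37.5-fold, 10.3 to 311). Snord34 and Snord35a lie next to each other on chromosome 7. U8 (SNORD118), which acts in the maturation of the large ribosomal subunit RNAs, had 590 and 2 ends (36.7-fold, 10.1 to 304), and 6287 ends in ES-1. The most abundant member of the class in ES-2, SNORD104, had 2825 ends there and 19 on flow cell A (10229 against 553 EPM, 18.5-fold, 11.8 to 30.8), although ES-1 held it at 1630 EPM. SNORD13, which binds the precursor of 18S rRNA, had 1419 and 10 ends (17.7-fold, 9.58 to 36.9). None of these 5 families had more than 1 end on flow cell B.

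Between these lay SNORD75 (26.3-fold), SNORD79 (24.8-fold), SNORD58 (21.3-fold) and SNORD55 (19.9-fold), all lower on flow cell A. Some families of the class differed less. U3, which is required for release of 18S rRNA, was 2.35-fold lower on flow cell A (1716 against 4037 EPM) but not on flow cell B (4537 EPM, 28 ends). SNORD14 stood at 0.728 of its ES-2 level and SNORD30 at 0.989, and SNORD83 was 2.07-fold higher, the only C/D family above ES-2 on flow cell A. On flow cell B SNORD83 had 6 ends (972 against 2828 EPM in ES-2), below ES-2. Classes were read from the names alone, and snoU97, whose name states no class, was not counted as C/D for that reason. It had 1317 ends in ES-2 and 3 on flow cell A (54.7-fold, 18.7 to 265). The scaRNAs SCARNA2 (469 and 4 ends, 14.6-fold, 5.66 to 53.8) and SCARNA6 (634 and 6 ends, 13.2-fold, 6.01 to 36) were lower as well.

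The H/ACA families that were highest in MEF had more ends behind them. SNORA47 had 157 ends on flow cell A against 100 in ES-2 (4566 against 362 EPM, 12.6-fold, 9.75 to 16.4), and 451 EPM in ES-1. SNORA65 had 418 and 458 ends (7.33-fold), SNORA78 226 and 308 (5.89-fold), SNORA34 201 and 287 (5.62-fold), SNORA51 345 and 528 (5.25-fold), SNORA2 198 and 305 (5.21-fold) and SNORA7 158 and 289 (4.39-fold). Flow cell B placed SNORA51 (12314 against 1912 EPM), SNORA65 (3240 against 1658), SNORA78 (3240 against 1115) and SNORA2 (3402 against 1104) above ES-2 too. It placed SNORA47 (324 against 362 EPM, 2 ends), SNORA34 (648 against 1039, 4 ends) and SNORA7 (486 against 1046, 3 ends) below it. Among RNA2 ends alone ES-2 held SNORA47 at 218 EPM, below flow cell B. Over all ends of flow cell A the 7 families stayed above ES-2, from 2.55-fold for SNORA7 to 7.36-fold for SNORA47. SNORA13 was the exception among the called H/ACA families, with 347 ends in ES-2 and 8 on flow cell A (5.4-fold lower, 2.71 to 12.6). By single name, 7 of the 120 H/ACA names tested were at least 4-fold higher in ES-2 and 26 on flow cell A. Among the 7 were a copy of SNORA3 (865 and 2 ends, 53.9-fold) and a copy of SNORA63 (3504 and 38 ends, 11.5-fold). Summed over copies, the SNORA3 family stood at 0.829 of ES-2 and the SNORA63 family at 1.34. SCARNA20, a scaRNA, was 10.7-fold higher on flow cell A (24 against 18 ends, 5.57 to 20.9) and had no end on flow cell B.

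The most abundant H/ACA families differed less. SNORA81 held 47342 EPM on flow cell A, 48492 in ES-2 and 46711 in ES-1. Among its copies, one was 1.48-fold higher on flow cell A than in ES-2 (1.39 to 1.57) and another 2.07-fold lower (1.88 to 2.3). SNORA73, whose members do not guide modification but are needed for rRNA processing, held 61475, 40207 and 49381 (1.53-fold higher on flow cell A than in ES-2). Over all ends of flow cell A, SNORA73 was below ES-2 (26741 against 29851 EPM, 1.12-fold, 1.07 to 1.17) and so was SNORA81 (20721 against 36085 EPM, 1.74-fold, 1.65 to 1.83), and on flow cell B SNORA73 was 2.89-fold lower (2.33 to 3.61). The MEF flow cells disagreed in the level of SNORA81. Flow cell A had 1628 of 34388 non-ribosomal ends (4.73%), which would correspond to 292 ends on flow cell B, where there was none among 6172 ends. A count of 3 ends there would be a share of 0.0486%. Of the 136 families, 26 lay further apart between the ES assays than between flow cell A and ES-2. The family furthest apart between the ES assays was SNORA76, which stood at 3078 EPM in ES-2, 289 in ES-1 and 9596 on flow cell A.

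**Figure D3:**
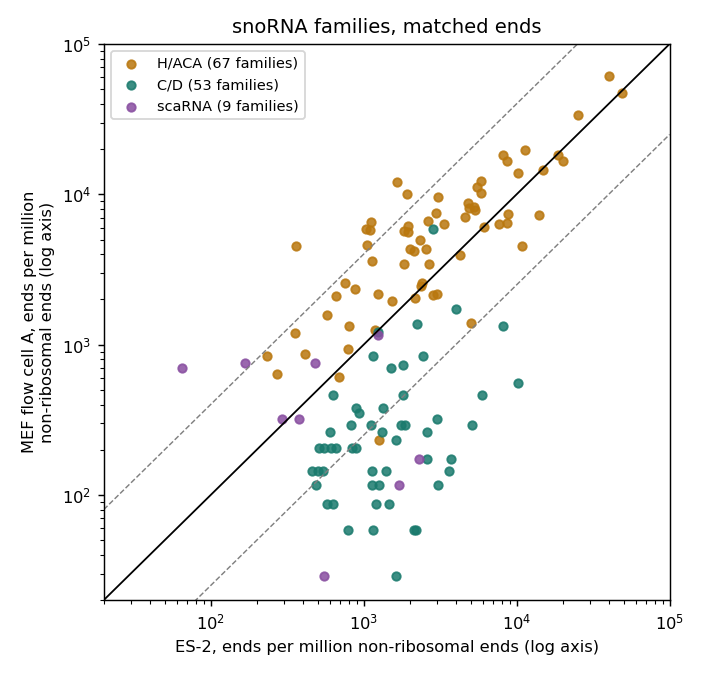
Each point is a snoRNA family, at its EPM of non-ribosomal matched ends in ES-2 (horizontal axis, log scale) and on MEF flow cell A (vertical axis, log scale). The solid line marks equal levels and the dashed lines a 4-fold difference; C/D families (green) lie below the solid line in 52 of 53 cases, while H/ACA families (brown) lie above it in 50 of 67.

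Among the snRNAs of flow cell A, U6, the catalytic RNA of the spliceosome, differed most from ES-2. It had 576 ends in ES-2 (617 EPM of matched ends) and 6 on flow cell A (51.6 EPM), 11.9-fold lower (5.45 to 32.7), while ES-1 held 553 EPM. Flow cell B did not differ from ES-2 in U6 within counting error (438 EPM from 15 ends, 0.711 of ES-2, 0.395 to 1.18). On flow cell A U1, which recognises the 5′ splice site, stood at 2628 EPM in ES-2 and 1162 on flow cell A (2.26-fold lower, 1.9 to 2.71). U2, which binds the branch site, stood at 2269 and 689 (3.29-fold lower, 2.64 to 4.17), and U4 was 2.46-fold lower (1.44 to 4.56). U5, which holds the exon ends together, did not differ within counting error (281 and 258 EPM, 0.743 to 1.64 for the ratio of ES-2 to MEF), nor did U12 of the minor spliceosome (286 and 224 EPM, 0.853 to 1.99). U11 had 41 ends in ES-2 and 1 on flow cell A, with a ratio of 5.1 and an interval that included 1 (0.866 to 206). The ES assays differed in most of these RNAs too: ES-1 held U1 and U2 at 1.98 and 1.97 times ES-2 and U5 at 3.19 times, but U6 at 0.897.

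The snRNA ends of flow cell B were of another kind. U1 made up 500 of its 542 snRNA ends (92.3%), at 130 distinct positions, against 39.5% of snRNA ends in ES-2 and 43.4% on flow cell A, where 135 U1 ends lay at 132 positions. The excess of snRNA on flow cell B was therefore one RNA, since U2 had 6 ends there and U5 had 1.

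tRNA ends were unevenly distributed, and the values for single amino acids are of flow cell A, with both sides of the linker summed, unless stated. Glutamate tRNA was 37.3% of the tRNA ends of flow cell A (279 of 747, 33.9% to 40.9%) and 9.25% in ES-2 (8.76% to 9.77%), with 8.59% in ES-1. Its level was 2402 EPM of matched ends on flow cell A and 1275 in ES-2 (1.88-fold higher, 1.65 to 2.15). Proline tRNA was 2.23-fold higher (456 against 205 EPM, 1.61 to 3.04), and aspartate tRNA stood at 1093 against 1043 EPM (ratio 1.05, 0.864 to 1.26), a sum of opposite differences at RNA1 and RNA2 that are given below. Lysine tRNA, the most abundant of ES-2, was 6.25-fold lower (456 against 2850 EPM, 4.76 to 8.36). Methionine (9.48-fold), asparagine (9.29-fold), threonine (9.41-fold), arginine (6.97-fold), leucine (6.66-fold) and glycine tRNA (4.49-fold) were lower as well in the sum of both sides. The anticodon group Arg-CGG had 210 matched ends in ES-2 and none on flow cell A, 8.71-fold lower when set against 3 ends. Scaled to non-ribosomal ends, its exact interval put it at least 7.03-fold lower. Flow cell B had 60 tRNA ends in all. Glutamate tRNA was below both sides of ES-2 summed there (497 EPM from 17 ends, 0.39 of ES-2, 0.226 to 0.627). Its share of the tRNA ends was 28.3% (17.5% to 41.4%). Proline tRNA had 5 ends on flow cell B (146 EPM, 0.715 of ES-2, 0.229 to 1.7) and lysine tRNA 6 (175 EPM, 0.0615 of ES-2, 0.0226 to 0.134). Among RNA2 ends alone ES-2 held 250 EPM of glutamate, 68.3 of proline and 184 of lysine tRNA. At that side glutamate and proline tRNA of flow cell B thus stood above ES-2, and lysine tRNA slightly below. Against ES-1 the tRNAs that were higher on flow cell A lay further apart and those that were lower lay nearer. Glutamate tRNA was 6.18-fold higher than in ES-1 (388 EPM there, 5.43 to 7.02), proline tRNA 9.93-fold (45.9 EPM, 7.21 to 13.5) and aspartate tRNA 1.59-fold (688 EPM, 1.32 to 1.9). Lysine tRNA was 1.53-fold lower than in ES-1 (698 EPM, 1.17 to 2.05) and glycine tRNA 1.87-fold lower (755 EPM, 1.4 to 2.54). Methionine, arginine and leucine tRNA were 2.58-fold, 1.72-fold and 2.75-fold lower than in ES-1, while the intervals for asparagine (1.63-fold lower, 0.786 to 4.09) and threonine (2.27-fold lower, 0.768 to 11.1) included 1.

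**Figure D4:**
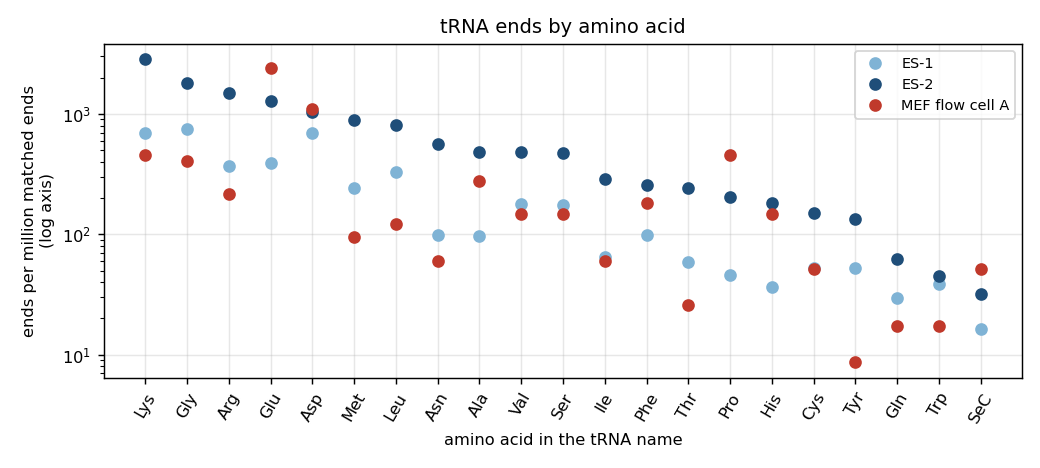
tRNA EPM of matched ends (vertical axis, log scale) by the amino acid in the tRNA name (horizontal axis, ordered by ES-2), for ES-1 (light blue), ES-2 (dark blue) and MEF flow cell A (red). Glutamate (2402 against 1275 EPM) and proline (456 against 205) stand above ES-2 in MEF, while lysine (456 against 2850) stands below.

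The side of the linker on which tRNA was found was reversed in MEF. Scaled to the matched ends of each side, tRNA was 11.1 times as frequent at RNA1 as at RNA2 in ES-2 (10.4 to 11.8) and 11 times in ES-1, but 0.659 times on flow cell A (0.556 to 0.779). The direction of the level turned with it. At RNA1 tRNA was 5.43-fold lower on flow cell A than in ES-2 (4790 against 26031 EPM of the RNA1 ends, 4.71 to 6.31), and at RNA2 3.09-fold higher (7267 against 2355 EPM of the RNA2 ends, 2.78 to 3.42). Glutamate tRNA was 1.61-fold lower at RNA1 (1.23 to 2.13) and 11.5-fold higher at RNA2 (9.15 to 14.4). Aspartate tRNA was 2.29-fold lower at RNA1 (1.64 to 3.31) and 11.1-fold higher at RNA2 (7.83 to 15.9). Lysine tRNA was 8.3-fold lower at RNA1 (5.69 to 12.6) and 1.84-fold higher at RNA2 (1.14 to 2.87). Proline tRNA had all of its 53 flow cell A ends at RNA2, where it was 10.1-fold higher (6.41 to 16.1), and 158 ends at RNA1 in ES-2. Methionine tRNA was lower on both sides (53.6-fold at RNA1 from 1 end, 9.58 to 2119, and 3.55-fold at RNA2, 1.89 to 7.5). Asparagine, threonine, arginine, leucine and glycine tRNA were 8.36-fold to 28.7-fold lower at RNA1, but at RNA2 each had an interval that included 1, with ratios of flow cell A to ES-2 of 1.96, 1.05, 1.63, 0.665 and 1.21. Both glutamate tRNA and the rest took part in the shift of side: RNA2 held 79.2% of glutamate tRNA ends (74% to 83.8%) and 72.2% of the other tRNA ends (67.9% to 76.2%) on flow cell A, against 10.2% and 8.71% in ES-2. snoRNA and snRNA lay toward RNA1 in both libraries, with RNA1 to RNA2 ratios of 3.07 in ES-2 and 2.18 on flow cell A for snoRNA and of 2.89 and 1.71 for snRNA. Protein-coding ends had no side in ES-2 (1.01, 0.992 to 1.03), lay toward RNA2 in ES-1 (0.901, 0.895 to 0.907) and toward RNA1 on flow cell A (1.74, 1.64 to 1.84).

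Messenger RNA was thin in both libraries, and markers of the cell types were checked on matched ends. The list of 26 fibroblast markers had 168 ends on flow cell A (4885 EPM of non-ribosomal ends) and 148 in ES-2 (536 EPM), 9.12-fold higher in MEF (7.27 to 11.4). The collagen I and III genes carried it. Col1a1 had 61 ends at 60 positions on flow cell A, 0 in ES-2 and 1 among 2009765 non-ribosomal ends in ES-1. The level on flow cell A was 163-fold higher than 3 ends in ES-2 would be. Col1a2 had 46 ends against 0 (123-fold against 3 ends) and Col3a1 13 against 0 (34.8-fold against 3 ends). By the exact intervals, ES-2 stood at no more than 0.00776 of flow cell A for Col1a1, 0.0104 for Col1a2 and 0.0409 for Col3a1. Vim, the intermediate filament of mesenchymal cells, had 6 and 4 ends (12-fold, 2.86 to 58). Fn1, for the matrix protein fibronectin, was 1.8-fold higher from 26 and 116 ends (1.13 to 2.77). Several defining markers were absent: the contractile genes Acta2 and Tagln had no matched end on flow cell A, and 12 of the 26 markers had at least 1.

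The list of 20 ES cell markers had 316 ends in ES-2 (1144 EPM), spread over 18 of its genes, and 5 ends on flow cell A (145 EPM), 7.87-fold lower in MEF (3.34 to 24.4). ES-1 stood at 1076 EPM. The pluripotency factor Sox2 had 61 and 1 ends (7.6-fold lower, 1.31 to 305). Esrrb had 42 and 2 (2.61-fold lower, with an interval of 0.68 to 22.3 that included 1). Klf2 had 27 and 0, 1.12-fold lower when set against 3 ends. Its exact interval for the ratio of MEF to ES-2 reached 1.18 and so included 1. Pou5f1 had 22 and 0, too few for a bound above 1. No gene of this list had enough ends for a call of its own, and Dnmt3l lay the other way from 5 and 1 ends (1.61-fold higher, 0.034 to 14.4). Flow cell B carried 10 ends from 7 of these genes (1620 EPM), above the level of ES-2, and its 105 Col1a1 ends lay at only 5 positions, with 98.1% within chr11:94810018-94810086. Other mRNA was lower on flow cell A too, by 1.41-fold over all protein-coding ends and by 3.47-fold to 5.74-fold in the 3 lists given below, and the difference between these and the ES cell markers was not tested. On flow cell B both lists lay above ES-2, and 105 of the 115 fibroblast marker ends there were Col1a1.

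**Figure D5:**
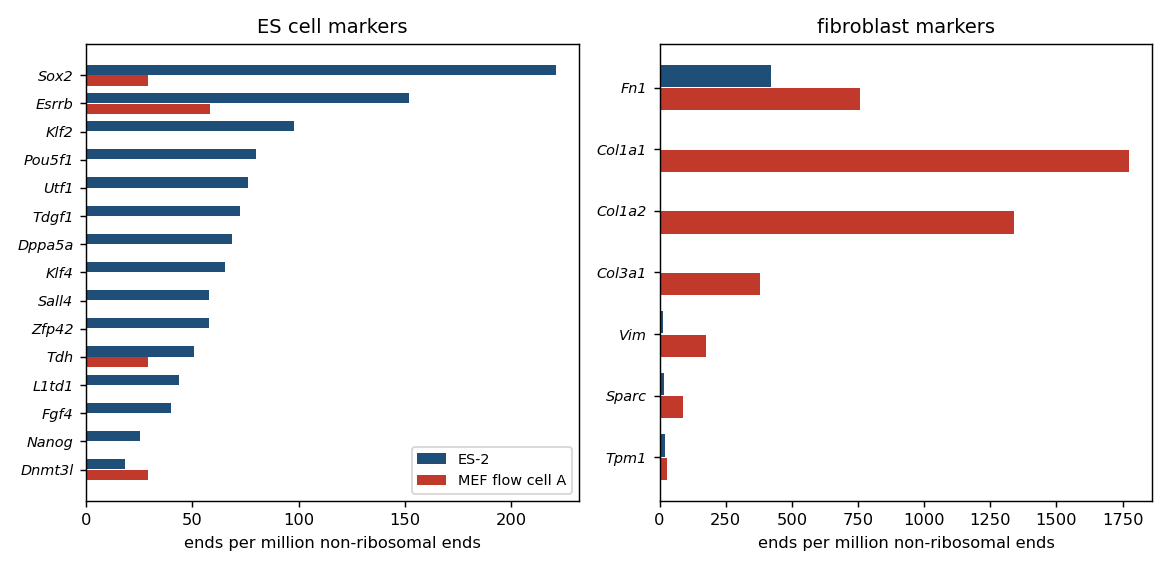
EPM of non-ribosomal matched ends (horizontal axis) for ES cell markers (left) and fibroblast markers (right) with at least 5 ends in ES-2 and MEF flow cell A together. Dark blue bars are ES-2 and red bars MEF flow cell A; Col1a1, Col1a2 and Col3a1 have 61, 46 and 13 ends in MEF and none in ES-2, and Pou5f1 and Klf2 have 22 and 27 ends in ES-2 and none in MEF.

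The other mRNA groups were lower on MEF flow cell A. Names of the ribosomal protein form, which also take S6 kinase genes and pseudogene copies, had 45 ends on flow cell A and 2073 in ES-2 (5.74-fold lower, 4.27 to 7.89). A single gene made up most of it: Rpl3 had 25 and 1145 ends (5.7-fold lower), of which 1132 in ES-2 were intronic and 84.8% fell within chr15:79913266-79913357. With Rpl3, the kinases and the copies set aside, 15 and 803 ends remained, 6.67-fold lower (4.02 to 12). Replication-dependent histone mRNAs, which are made as cells copy their DNA, had 33 and 933 ends (3.52-fold lower, 2.49 to 5.15). The list of 20 actin, translation and glycolysis mRNAs had 41 and 1142 ends (3.47-fold lower, 2.54 to 4.86), led by the elongation factor Eef1a1 (2 against 149 ends, 9.28-fold) and the chaperone Hsp90ab1 (4 against 188, 5.85-fold). All protein-coding ends together were lower by a log2 ratio of -0.50 on flow cell A (-0.54 to -0.45), a value that includes names made up of ribosomal sequence as given below. That difference lay at RNA2 (33461 against 58712 EPM of the RNA2 ends), with RNA1 at 58191 against 59254. The direction was the opposite on matched ends of flow cell B (0.26, 0.20 to 0.32) and over all kept ends of flow cell A (0.60, 0.58 to 0.62). Flow cell B went the other way for the ribosomal protein names (144 ends, 23331 against 7506 EPM in ES-2), of which 129 ends were Rps16 at 3 positions. It went the other way for the histones too (42 ends from 26 of the genes, 6805 against 3378 EPM), and stood below ES-2 for the list of actin, translation and glycolysis mRNAs (17 ends, 2754 against 4135 EPM).

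Nuclear and imprinted noncoding RNAs were sparse. The list had 11 ends on flow cell A and 211 in ES-2 (2.39-fold lower, 1.31 to 4.86). Rian, transcribed from the imprinted Dlk1–Dio3 region, had 80 ends in ES-2 and none on flow cell A (at least 2.64-fold lower by the exact interval). Meg3 of the same region had 15 and none, too few for a bound above 1. On flow cell B the list had 5 ends, all of them Malat1 (810 against 764 EPM in ES-2). Malat1, an abundant nuclear RNA, did not differ within counting error on flow cell A (10 and 104 ends, ratio of ES-2 to MEF 1.29, 0.677 to 2.78).

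Over all kept ends with pooled flow cells, 726 gene names had an expected 10 or more non-ribosomal ends in the smaller library. Of these 149 (20.5%) were at least 4-fold higher in MEF and 168 (23.1%) at least 4-fold higher in ES-2, with 0.5 ends added to each count. With flow cell B counted by its RNA2 end alone, 130 and 160 of 657 names were called. Requiring the same call on each MEF flow cell left 25 (3.44%) and 135 (18.6%). That rule was weak, because 10 of the 25 names had no end on flow cell B and passed there only through the 0.5 ends added to each count. Of the 135 names 113 had no end on flow cell B. Of all 726 names tested, 278 were protein-coding (38.3%), 241 snoRNA (33.2%) and 35 tRNA (4.82%). Of the 149 names higher in MEF, 108 were protein-coding and 13 snoRNA, and only 17% of their MEF ends matched the genome, with 107 of the 149 names under 10% matched. Of the 168 names higher in ES-2, 90 were snoRNA, 23 tRNA and 45 protein-coding, and 86.6% of their MEF ends matched. Of the 10 names highest in MEF under this rule, Adamts9, Tmem179, Olfm3, 1700026D11Rik, Rbm10 and 5830433M19Rik had no end on flow cell B, and Scn1a had 1 there. Scn1a, Tmem179, Olfm3, Rbm10 and 5830433M19Rik had no matched end in MEF, whereas the MEF ends of Col1a1 (99.6%), Col1a2 (98.1%) and Tob2 (100%) were nearly all matched. Tob2 had 24 MEF ends, 22 of them on flow cell B where both ends of a line were counted, and 2 in ES-2. The 10 highest in ES-2 were tRNA-Arg-CGG and tRNA-Arg-CGA_, the snoRNA names snoU97, Snord72, Snord23, Snord35b and a copy of SNORA3, and the genes Rnd2, Zfp791 and Ccr7.

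On matched ends and flow cell A, 284 names could be compared, 192 of them snoRNA (67.6%), of which 33 (11.6%) were higher in MEF and 72 (25.4%) in ES-2. Higher in MEF were 27 snoRNA names, the 4 protein-coding genes Col1a1, Col1a2, Myh9 and Sipa1l3, the LINE L1Md_F3 and tRNA-Pro-CCG. Myh9, the heavy chain of nonmuscle myosin, had 18 ends against 21 in ES-2 (6.88-fold, 3.46 to 13.6). Sipa1l3 had 44 against 57 (6.2-fold, 4.09 to 9.35), all 44 of them intronic. On flow cell A 52.3% of its ends lay within chr7:30231501-30231596, and in ES-2 57.9% within chr7:30231463-30231593. Of the 149 names called on all ends, 13 could be tested on matched ends and all 13 were called the same way. Of the 168, 91 could be tested, 69 were called the same way and 0 the opposite way. The matched ends are a part of the ends behind the first calls, in the same libraries. The same call was thus likely from the outset and is not separate support.

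Several names that were higher in ES-2 rested on few positions. Rnd2 had 169 ends in ES-2 at 3 positions, none in MEF and 4 in ES-1. Ccr7, a chemokine receptor, had 148 ends at 2 positions and none in MEF. Kdm5c, a histone demethylase, had 210 ends at 12 positions, 1 on flow cell A and 65 in ES-1. The 1145 Rpl3 ends lay at 236 positions, but 84.8% of them fell within the one stretch given above. Zfp791 had 159 kept ends in ES-2, of which 1 matched.

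Some names stood for ribosomal sequence. L1Md_F3, a LINE, stood at 16903 EPM of non-ribosomal ends in ES-2 and 74125 on flow cell A (4.39-fold, 4.18 to 4.6), and 98.4% of its ends on flow cell A and 96.9% in ES-2 held 20 bases also found in ends named rRNA. Without it, LINE ends were 1.76-fold lower in MEF (1.63 to 1.89) in place of higher by a log2 ratio of 0.81. Such bases were also held by 89.4% of the Il1rapl1 ends of flow cell A, where 84.2% of the ends of that name lay in one intronic stretch (chrX:84483701-84483768). The same held for 100% of the Dnahc7b ends of flow cell A. Neither name was called: Il1rapl1 was 2.28-fold higher on flow cell A (2.03 to 2.55), and Dnahc7b stood at 0.609 of ES-2 (0.505 to 0.728). None of the Col1a1, Col1a2, Sipa1l3, Rpl3 or U1 ends of flow cell A held such bases.

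Contacts could be compared over lines in which both fragments matched and were distinct, 412884 in ES-2 and 36437 on flow cell A. Distinct means that the RNA1 sequence did not lie inside the RNA2 sequence in either orientation. Lines that joined snoRNA (RNA1) to rRNA (RNA2) made up 18.6% in ES-2 and 18.5% in MEF, while the opposite order, rRNA to snoRNA, made up 3.5% and 8.55% (8.26% to 8.84%). Set against the frequencies of the ends, the first order stood at 0.972 in ES-2 and 0.985 in MEF. The opposite order stood at 0.771 and 0.928. Lines with a protein-coding name at both ends were 2.1% and 2.25%, which was 5.63 and 7.86 times what the frequencies of the ends would give. Such names took in introns and ribosomal sequence as given above, and lines with both ends in one gene were not set apart. Contacts between different mRNAs were therefore not measured by these values. snoRNA joined to snoRNA was 3.35% in ES-2 and 5.51% in MEF, 1.83 and 1.38 times the frequency from the ends, and 7.96% in ES-1.

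Among these snoRNA–snoRNA lines the classes joined differed along with the class makeup. Pairs of C/D snoRNAs were 15.2% of them in ES-2 (2100 of 13815 lines) and 0.597% in MEF (12 of 2009, 0.309% to 1.04%), with 3.96% in ES-1. Most of these C/D pairs in ES-2 joined a family with itself. Different families were joined in 278 of the 2100 lines in ES-2, 2796 of 6948 in ES-1 and 5 of 12 in MEF. Pairs of H/ACA snoRNAs were 59.8% and 91.9%, and 63.6% in ES-1. In 48.7% of the ES-2 lines (47.9% to 49.6%) and 44.9% of the ES-1 lines both fragments belonged to the same family. On flow cell A this was 21.2% (19.4% to 23%), against 3.41% from the frequencies of the ends (2.44% in ES-2). Between different families, SNORA73 with SNORA81 was the commonest pair in each of these 3 collections, with 68 of 7082 lines in ES-2, 23 of 1584 in MEF and 972 of 96733 in ES-1. SNORA73 and SNORA81 were also the snoRNA families with the most ends in each. What their abundance alone would give for the pair was not computed. In MEF the next pair, SNORA63 with SNORA73, had 22 lines.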

How the data were processed

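The deposited files hold one RNA1–Linker–RNA2 molecule per line, with positions, sequences, RNA types and names that the authors assigned. They hold no measured value (unit: other), so the ends were counted here. The submitters' processing notes name TopHat2 2.1.1 and mm9 (NCBIM37). Lines with both fragments of at least 25 nt were kept. Each fragment was compared with mm9 at its stated position, allowing 15% mismatches, or with gaps by edlib 1.3.9.post1, and placed by sequence with minimap2 2.31. Ends were counted per 1000000 ends in Python 3.11.15 with NumPy 2.4.6, SciPy 1.17.1, pandas 2.3.3 and matplotlib 3.10.9. A name with an expected 10 or more ends in the smaller library was called at 4-fold, with 0.5 ends added to each count. A level of 0 was set against 3 ends. The calls and the intervals were tested on simulated counts. Members and lists were chosen with earlier results of these data known. Names given were the 10 highest in each library with the same call on both MEF flow cells, abundant snoRNAs, snRNAs and tRNAs, members of the lists with at least 5 ends, and others that were chosen after their values were seen. Alternatives changed length, collapsing, matching, denominator, side, flow cell, ES assay, naming, added counts and thresholds.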

Additional observations from a re-analysis of the deposited data

How the results depend on the processing

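Apart from 2 settings named below, each setting changed one choice, and where a value moved the cause was not tested. With 1 library per group no replicate could be left out. No paired analysis was possible because ES-2 and MEF are single libraries and no test was run. Placing by sequence was not run for tRNA, since the annotation used names no tRNAs; it placed 61.3% of the non-ribosomal ends of ES-2 and 36.9% of those of MEF. The snoRNA log2 ratio of MEF to ES-2 (-0.56 as reported) became -0.66 at 20 nt, -0.43 at 30 nt, -0.13 collapsed, -0.38 on matched ends, -0.72 with the other denominator, -1.07 at RNA1, -0.20 on flow cell A, -2.22 on flow cell B, -1.50 against ES-1 and -0.63 placed by sequence. It turned to 0.32 at RNA2. The snRNA ratio (0.00) became, in the same order, -0.38, 0.55, -0.16, 0.19, -0.15, -0.57, -1.65, 1.41, -1.09 and -0.13, and 0.91 at RNA2. The tRNA ratio (-1.70) became -1.34, -2.41, -1.33, -1.55, -1.86, -3.25, -1.40, -2.86 and -0.19, up to the comparison with ES-1, and turned to 1.30 at RNA2.

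Names higher in ES-2 (168) numbered 433 at 20 nt, 74 at 30 nt, 95 on matched ends, 46 at RNA2, 50 on flow cell B, 1394 over every name, 102 at an expected 20 ends and 260 at 2-fold. Names higher in MEF (149) numbered 43 at 30 nt, 48 on matched ends, 45 at RNA2, 35 on flow cell B, 19 placed by sequence, 1924 over every name and 79 at an expected 20 ends. Under 9 other settings each count stayed within 1.5 times.

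A further 4 settings were chosen after seeing the data. Matched ends on flow cell A, which change matching and flow cell together, gave 0.14 for snoRNA, which turned its direction, -1.31 for snRNA, -1.10 for tRNA, 72 names higher in ES-2 and 33 in MEF. With gaps allowed these were 0.13, -1.33, -1.11, 75 and 40. Counting flow cell B once gave -0.40, -0.48 (-0.58 to -0.37) and -1.57. Leaving out the recurrent stretch gave -0.35, 0.31, -1.91 and 93 names higher in MEF.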
